A study of Sus scrofa with 8 samples.

Results

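The hepatocyte lineage transcription factors are the DNA-binding proteins that establish and hold the liver cell programme, and 9 of them were listed by gene symbol: HNF4A, FOXA1, FOXA2, FOXA3, CEBPA, CEBPB, ONECUT1, PROX1 and NR5A2. Of these, 7 had an identifier among the 21607 mRNAs of the table and are described here. FOXA1 and CEBPB had none and were not analysed here. The factors were measured in the livers of 4 female Yanan pigs in good health, namely 2 young sows of 180 days (young livers YL1 and YL2) and 2 old sows of 8 years (old livers OL1 and OL2). Per the paper, the young sows had borne no litter and the old sows were removed from breeding after years of litters. Age and reproductive history therefore cannot be told apart here. The sows were unrelated and untreated, all were slaughtered after a night without food, and each liver gave 1 rRNA-depleted RNA-seq library, so an age group rests on 2 animals. The labelled tissue was checked against 8 hepatocyte markers, of which 6 had an identifier. These 6 lay between 467 and 35205 CPM (reads scaled by 1 factor per library) in every library.

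The factors work as a cross-regulating network. FOXA proteins are pioneer factors that open chromatin at liver enhancers before other factors arrive, and HNF4A is a nuclear receptor that keeps most hepatocyte genes active in the adult. CEBPA and CEBPB are basic leucine zipper factors of metabolic and of acute phase genes. ONECUT1 and PROX1 are homeodomain factors that guide liver growth and the choice between hepatocyte and bile duct fates. NR5A2 is a nuclear receptor of bile acid and cholesterol genes, and its activity is held down by the corepressor NR0B2.

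A value here is the number of reads of a gene times the worth of 1 read in that library, without division by gene length, so levels are compared between libraries and never between genes. The mRNAs held between 22482241 (OL1) and 37555696 (YL1) recovered reads per library. In OL1, the summed level of 6 interferon-stimulated genes was 1297 CPM, against 12.6 to 20.7 in the other libraries. In OL2, the summed level of 6 immediate early genes was 280 CPM, against 7.96 in YL1, 8.77 in YL2 and 43.6 in OL1. By the unadjusted threshold, JUNB (0.131, 0.994, 11.4 and 14.4 CPM in YL1, YL2, OL1 and OL2) and IER2 (3.52, 2.69, 18.2 and 28.8) were higher in old livers. The part of these differences in the values below was not tested, and each factor is therefore also given with 1 library left out. Bulk tissue was measured, so a change in the number of cells of a type and a change in RNA per cell cannot be told apart.

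Across the 7 factors, no common direction with age was seen. FOXA2, CEBPA and ONECUT1 were higher in both old livers than in both young livers, NR5A2 was lower in both old livers, and HNF4A, FOXA3 and PROX1 overlapped between the age groups. Among the 9790 tested mRNAs with a mean of at least 1 CPM, 17.8% were higher and 32.9% were lower in old livers without overlap, beside the 3 higher and the 1 lower of these 7 factors. None of the 7 had an adjusted p-value under 0.05 in limma, where 0% of the 16898 tested mRNAs were called at that threshold with an absolute log2 fold change above 1. At an unadjusted p-value under 0.05, 6.78% of the tested mRNAs were higher and 8.93% were lower in old livers. Of the 7 factors, NR5A2 alone was among them. This changed with the scaling between libraries, the pseudocount, the filter and the variance model, as given below. The median log2 fold change of the 7 factors was 0.39, against -0.15 for all mRNAs with a mean of at least 1 CPM and -0.023 for all tested.

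**Figure D1:**
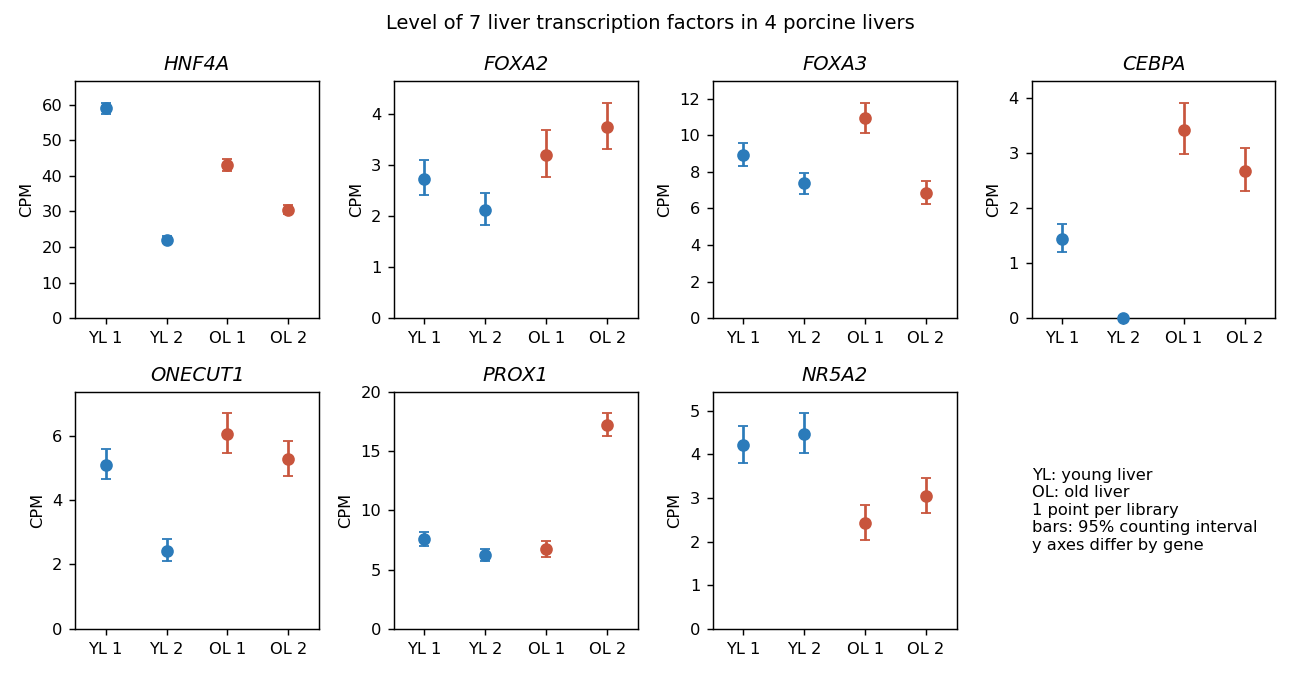
Level of each of the 7 transcription factors, in CPM, in the 2 young livers (YL1 and YL2, blue) and the 2 old livers (OL1 and OL2, red). Points are single libraries and bars are 95% Poisson intervals of the recovered reads. FOXA2, CEBPA and ONECUT1 sit higher in both old livers, NR5A2 sits lower, and the young livers lie on either side of both old livers for HNF4A.

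HNF4A (ENSSSCG00000007371), the nuclear receptor at the centre of the network, was at 59.0 CPM in YL1, 22.1 in YL2, 43.0 in OL1 and 30.4 in OL2. The highest and the lowest library were thus both young, and the old livers lay between them. The young livers differed 2.67-fold and the old livers 1.41-fold. On log2(CPM + 1), the young livers differed by 1.38, and 5.97% of mRNAs with a mean of at least 1 CPM differed by as much between these 2 libraries. The log2 fold change between old and young livers was -0.00043 with a standard error (SE) of 0.58 (limma adjusted p = 0.9998). With 1 library left out it ran from -0.69 (without YL2) to 0.69 (without YL1), so its direction changed with the young liver left out.

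Both measured FOXA genes differed less than HNF4A between the young livers. FOXA2 (ENSSSCG00000007114) was at 2.73 CPM in YL1, 2.13 in YL2, 3.20 in OL1 and 3.75 in OL2. The groups did not overlap, although the nearest pair, YL1 with 251 reads and OL1 with 197 reads, had overlapping 95% counting intervals (2.41 to 3.09 and 2.77 to 3.68 CPM). Its log2 fold change was 0.39 (SE 0.16, limma adjusted p = 0.395). FOXA2 kept a positive log2 fold change under each of the 13 alternatives tried, from 0.26 to 0.72. Since the groups did not overlap, only a change of scaling or an edgeR test could have reversed this sign. FOXA3 (ENSSSCG00000003092), the FOXA protein that persists most strongly in the mature liver, was at 8.92 CPM in YL1, 7.36 in YL2, 10.9 in OL1 and 6.85 in OL2. Both young values fell between the old values, and the log2 fold change of 0.087 (SE 0.28, limma adjusted p = 0.922) turned negative without OL1 (-0.21) and without YL2 (-0.036).

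CEBPA (ENSSSCG00000002866), which restrains hepatocyte division and drives genes of glucose and nitrogen metabolism, had 133 reads in YL1 (1.45 CPM), 211 in OL1 (3.43 CPM) and 193 in OL2 (2.69 CPM). It was listed at 0 in YL2, where a count of 0 allows up to 0.0347 CPM. The 95% counting interval of YL1 (1.21 to 1.72 CPM) lay below those of OL1 (2.98 to 3.92) and OL2 (2.32 to 3.09). The log2 fold change was 1.37 with an SE of 0.53 (limma adjusted p = 0.365). It depended on the library listed at 0, with 0.72 without YL2 and 2.01 without YL1, and with a pseudocount of 0.1 in place of 1 it was 2.99.

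A value of 0 beside many reads elsewhere was not particular to CEBPA in YL2. In that library, 73 mRNAs were listed at 0 that had at least 100 reads in each of the other 3 libraries, and CEBPA was 1 of them. The corresponding numbers were 23 in YL1, 2 in OL1 and 4 in OL2. With at least 30 reads in each of the other libraries there were 254, 91, 10 and 7 such mRNAs in YL2, YL1, OL1 and OL2. The mRNA reads of YL2 (37125093) were more than those of OL1 (22482241) and OL2 (24866406). Both young livers nevertheless had fewer mRNAs above 0, with 15230 in YL1 and 14291 in YL2 against 17262 in OL1 and 16978 in OL2. The 0 of CEBPA is therefore given as a listed value and not as absence of the transcript. CEBPG, the neighbouring protein-coding gene of CEBPA and a leucine zipper partner of the family, had 424 reads in the same library and was at 7.57 CPM in YL1, 4.90 in YL2, 13.7 in OL1 and 4.23 in OL2.

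**Figure D2:**
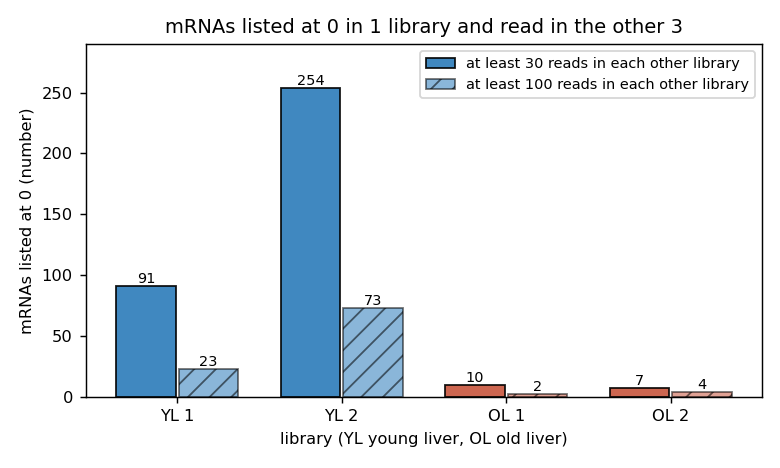
Number of mRNAs listed at 0 in 1 library while having at least 30 reads (plain bars) or at least 100 reads (hatched bars) in each of the other 3 libraries, for young livers (blue) and old livers (red). YL2 held 254 and 73 such mRNAs, CEBPA among both, and the old livers held at most 10 and 4.

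ONECUT1 (ENSSSCG00000004616), a homeodomain factor upstream of HNF4A and FOXA2 in liver development, was at 5.10 CPM in YL1, 2.43 in YL2, 6.05 in OL1 and 5.26 in OL2. YL2 stood apart from the other 3 libraries, and YL1 and OL2 had overlapping counting intervals (4.64 to 5.58 and 4.75 to 5.82 CPM). The log2 fold change of ONECUT1 was 0.54 (SE 0.35, limma adjusted p = 0.551), and it was 0.12 without YL2 and 0.96 without YL1. Its paralog ONECUT2 was at 0.076 CPM in YL1, 1.38 in YL2, 1.40 in OL1 and 1.28 in OL2, so for ONECUT2 the low library was YL1.

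PROX1 (ENSSSCG00000015584), which limits HNF4A and NR5A2 activity in hepatocytes and is also the master factor of lymphatic endothelium, was at 7.57 CPM in YL1, 6.22 in YL2, 6.73 in OL1 and 17.2 in OL2. OL2 was alone at a high level, and OL1 lay between the young livers. The log2 fold change was 0.59 (SE 0.51, limma adjusted p = 0.649), with 1.21 without OL1 and -0.025 without OL2. Of 5 markers of lymphatic endothelium, 4 had an identifier, and their summed level was 16.3 and 13.9 CPM in YL1 and YL2, 42.0 in OL1 and 17.3 in OL2. PDPN, a defining lymphatic marker, was at 0 in YL1 and YL2, at 0.065 CPM (4 reads) in OL1 and at 0.070 (5 reads) in OL2, too few reads to order the old livers. LYVE1, which liver sinusoids also hold, made up 36.5 CPM of the sum in OL1. FLT4 (4.99, 3.77, 4.24 and 6.96 CPM in YL1, YL2, OL1 and OL2) and RELN (2.38, 2.13, 1.17 and 2.78) were each highest in OL2, as was PROX1. LYVE1 was lowest in OL2, at 7.49 CPM against 8.9 in YL1 and 8.01 in YL2, so the list did not follow PROX1 as a whole. The part of lymphatic cells in the PROX1 level was not tested.

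NR5A2 (ENSSSCG00000024975), also called LRH-1, had 386 reads in YL1 (4.20 CPM) and 387 in YL2 (4.47 CPM), against 149 in OL1 (2.42 CPM) and 218 in OL2 (3.04 CPM). Both old livers were below both young livers, and the counting intervals of the nearest pair did not overlap (3.79 to 4.64 CPM in YL1 and 2.65 to 3.47 in OL2). The young mean was 1.59-fold the old mean. The log2 fold change of NR5A2 was -0.52 (SE 0.14, unadjusted p = 0.0317 and limma adjusted p = 0.277), and it stayed negative under each of the 13 alternatives, from -0.66 to -0.37. Without overlap between the groups, only a change of scaling or an edgeR test could have reversed this sign. With edgeR's exact test on recovered reads, NR5A2 had a log2 fold change of -0.47 and an adjusted p-value of 0.905. Its unadjusted limma p-value was 0.086 with libraries rescaled by TMM factors and 0.14 with a mean of at least 1 CPM required. It was 0.113 with a pseudocount of 0.1, 0.125 with a variance trend, 0.056 with the replicate number as a block and 0.0255 without a filter. Pancreatic acinar cells also hold NR5A2, and of 6 acinar markers PNLIP, CEL and CLPS were at 0 in all 4 libraries and the sum of the list was at most 0.599 CPM.

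**Figure D3:**
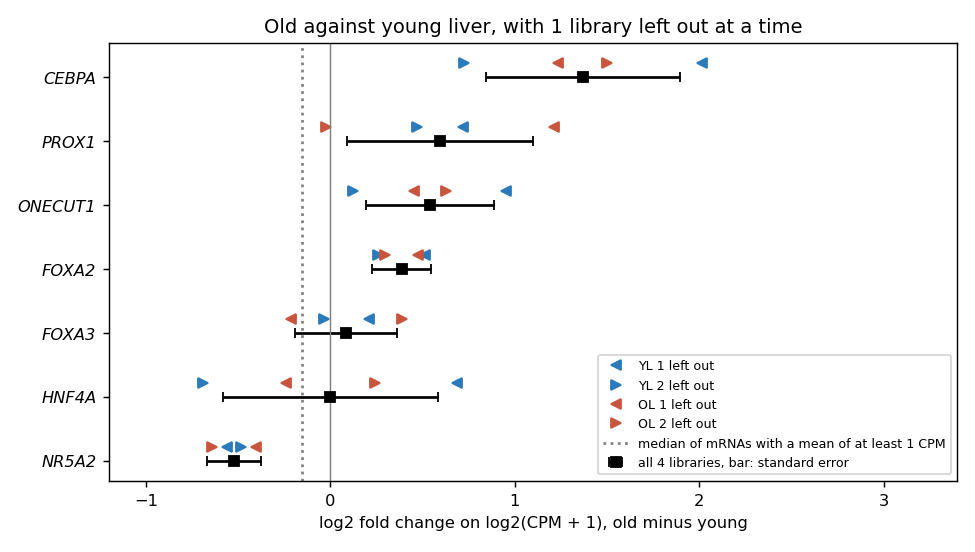
Log2 fold change of each transcription factor between old and young livers on log2(CPM + 1). Black squares with bars are the estimate from all 4 libraries and its standard error, and triangles are estimates with 1 library left out. The triangles of NR5A2 stay below 0, those of FOXA2, ONECUT1 and CEBPA stay above 0, and those of HNF4A spread from -0.69 to 0.69. The age groups of NR5A2, FOXA2, ONECUT1 and CEBPA did not overlap, so leaving out 1 library could not move them across 0.

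YL2 had the lowest level of 5 of the 7 factors, namely HNF4A, FOXA2, CEBPA, ONECUT1 and PROX1. Over all mRNAs with a mean of at least 1 CPM, 22.9% were lowest in that library. CEBPA counted through its listed 0. The counting intervals of YL2 overlapped those of YL1 for FOXA2 (1.83 to 2.46 and 2.41 to 3.09 CPM) and those of OL1 for PROX1 (5.70 to 6.76 and 6.09 to 7.41). NR5A2 had the opposite order, with its highest value in YL2. OL1 had the highest level of FOXA3, CEBPA and ONECUT1, and OL2 the highest level of FOXA2 and PROX1. Without YL2 the median log2 fold change of the 7 factors was 0.12, and without YL1 it was 0.69.

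The scaling between libraries bore on these directions. When libraries were rescaled with TMM factors, the median log2 fold change of mRNAs with a mean of at least 1 CPM moved from -0.15 to 0.00087. On that scale FOXA2, CEBPA, ONECUT1 and PROX1 were higher without overlap (4 of 7, background 23.7%), NR5A2 was lower without overlap (1 of 7, background 24.4%), and HNF4A had a log2 fold change of 0.20. The unadjusted limma p-value on that scale was 0.0331 for FOXA2 and 0.086 for NR5A2, so FOXA2 and not NR5A2 passed 0.05. With the deposited scaling, 1145 mRNAs were higher and 1509 lower by the unadjusted threshold of 0.05, with TMM 1497 were higher and 955 lower, and with DESeq2 size factors 1453 were higher and 1009 lower. This turn was not particular to the scaling. On the deposited scaling, 1456 were higher and 982 lower with a pseudocount of 0.1, and 1394 and 1021 with a variance trend. More mRNAs stayed lower without a filter, with a mean of at least 1 CPM required and with the replicate number as a block.

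The factors were next set beside 20 other liver transcription factors and partners, of which 17 had an identifier. None was called by limma. At an unadjusted p-value under 0.05, NR0B2 was higher and NR1I2 and NR1H4 were lower in old livers. NR0B2 (SHP), a corepressor without a DNA-binding domain that is induced by the bile acid receptor NR1H4 and that inhibits NR5A2 and HNF4A, was at 9.92 CPM in YL1, 4.56 in YL2, 68.7 in OL1 and 37.3 in OL2. Both old livers were well above both young livers, and the old mean was 7.32-fold the young mean. The log2 fold change of NR0B2 was 2.73 (SE 0.52, limma adjusted p = 0.230), and it lay between 2.24 and 3.22 when any single library was dropped. On recovered reads, NR0B2 was called by the exact test of edgeR (log2 fold change 3.08, adjusted p = 0.00226), which called 2.7% of the tested mRNAs in this direction and none of the 7 lineage factors. The quasi-likelihood test of edgeR called 0 mRNAs and left 1954 higher and 520 lower under an unadjusted threshold of 0.05, and it gave NR0B2 an adjusted p-value of 0.276.

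NR1H4 (FXR), the bile acid receptor, was at 22.0 CPM in YL1, 21.3 in YL2, 16.8 in OL1 and 14.2 in OL2. Its log2 fold change was -0.46 (SE 0.14, limma adjusted p = 0.293). NR1I2 (PXR), a xenobiotic receptor whose gene is driven by HNF4A, was at 25.9 CPM in YL1, 23.5 in YL2, 18.8 in OL1 and 15.2 in OL2, a log2 fold change of -0.52 (SE 0.16, limma adjusted p = 0.305). NR5A2, NR1H4 and NR1I2 were therefore lower in each old liver than in each young liver, while NR0B2 was higher in each, and with TMM scaling the log2 fold changes were -0.37, -0.27, -0.33 and 2.92 in this order. The unadjusted limma p-values with TMM scaling were 0.086, 0.139, 0.121 and 0.00785 in the same order, so of these NR0B2 alone stayed under 0.05. Of the other close relatives, GATA4 was at 1.33, 1.32, 1.22 and 2.73 CPM in YL1, YL2, OL1 and OL2, and GATA6 was at 0.653, 1.47, 1.64 and 1.31. Both GATA genes overlapped between the age groups. Over the 17 factors, 3 were higher and 4 were lower without overlap, shares near or below the 17.8% and 32.9% over all mRNAs with a mean of at least 1 CPM, and the median log2 fold change was 0.15.

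**Figure D4:**
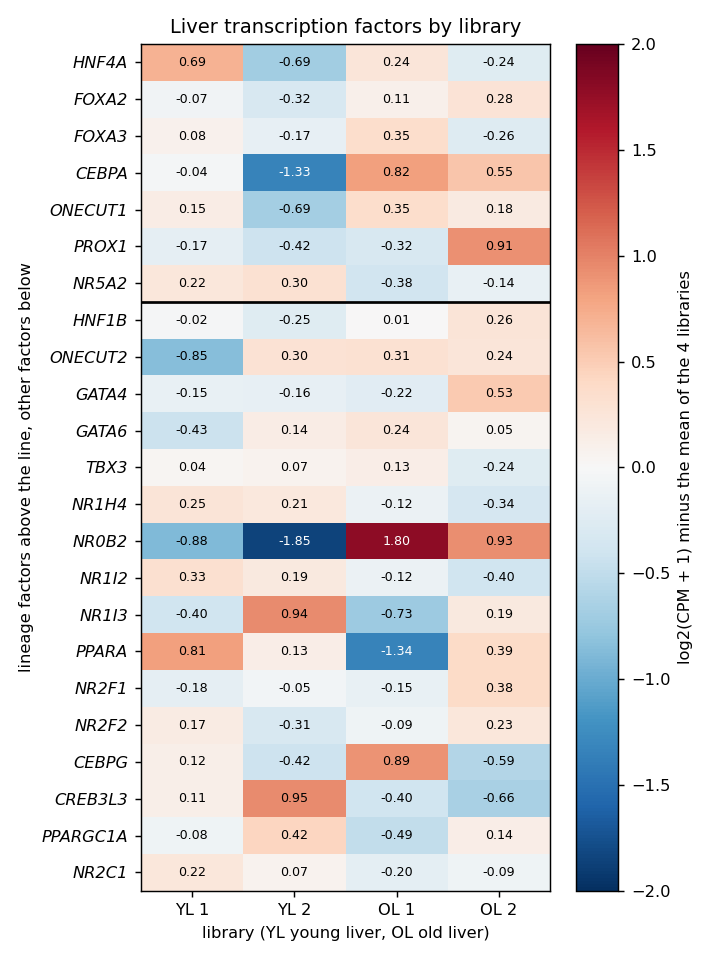
Heat map of log2(CPM + 1) minus the gene's mean over the 4 libraries for the 7 lineage factors (above the line) and other liver transcription factors and partners (below it) in young (YL) and old (OL) livers. NR0B2 shows the widest range of the map. HNF4A, FOXA2, CEBPA, ONECUT1 and PROX1 are lowest in YL2.

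Genes that these factors are known to bind or drive in hepatocytes were examined as a list of 23, of which 17 had an identifier. None was called by limma or by either edgeR test. At an unadjusted p-value under 0.05, 4 were lower and 0 were higher in old livers, beside 8.93% and 6.78% of all tested mRNAs, and the median log2 fold change was -0.57. Without overlap, 6 of the 17 were lower, a share near the 32.9% of all mRNAs with a mean of at least 1 CPM, and 0 were higher. TDO2, which opens tryptophan breakdown, was at 284 CPM in YL1, 269 in YL2, 154 in OL1 and 98.4 in OL2, with a log2 fold change of -1.16 (SE 0.27, limma adjusted p = 0.254). F9, coagulation factor IX and a classic HNF4A and CEBPA target, was at 232 CPM in YL1, 242 in YL2, 127 in OL1 and 164 in OL2, and APOC3, an HNF4A target among the most abundant liver transcripts, was at 38924 and 41068 against 27977 and 25036. APOB was the remaining gene of the 4, at 213 and 185 CPM against 119 and 150. ALB, the albumin gene, was at 29468 CPM in YL1, 35205 in YL2, 16534 in OL1 and 23978 in OL2 (log2 fold change -0.69, SE 0.26, limma adjusted p = 0.352). With TMM scaling, the log2 fold changes of TDO2, F9, APOC3, APOB and ALB stayed negative, from -0.96 to -0.37. Of the 4 genes, TDO2 alone kept an unadjusted limma p-value under 0.05 with TMM scaling (0.0333). That p-value was 0.064 for F9, 0.057 for APOC3 and 0.118 for APOB.

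CEBPB had no identifier, so its side of the network was read only from acute phase genes with known C/EBP beta sites, of which 5 of 10 had an identifier. CRP, the C-reactive protein gene, was at 360 CPM in YL1, 217 in YL2, 36.7 in OL1 and 11.9 in OL2, a log2 fold change of -3.67 (SE 0.68, limma adjusted p = 0.228). It was called by the exact test of edgeR (log2 fold change -3.36, adjusted p = 0.00422), which called 0.456% of the tested mRNAs in this direction, and not by the quasi-likelihood test (adjusted p = 0.276). The other 4 genes, LBP, ITIH4, C3 and IL6R, had log2 fold changes from -0.40 to 0.76, so CRP did not stand for the list, whose median was -0.13.

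For the nearest profiles, each factor was compared with 6101 other mRNAs that had a symbol and a mean of at least 1 CPM, by the Euclidean distance of centred log2(CPM + 1) over the 4 libraries. HNF4A was closest to CTNNBL1 (distance 0.068), PRKAR2A (0.11) and LEO1 (0.13). NR5A2 was closest to GHITM (0.026), TIAL1 (0.034) and MPDU1 (0.048), and FOXA3 to PRKCD (0.034), RORA (0.053) and RUBCN (0.063). FOXA2 was closest to AP1S1 (0.087), ONECUT1 to SYTL3 (0.094), PROX1 to CAMK2G (0.13) and CEBPA to PTPN1 (0.19). With 4 libraries, such nearness describes the order and the spread of 4 values, and no lineage factor was among the 3 nearest mRNAs of another.

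Levels of other cell types were taken from marker lists. Summed levels in YL1, YL2, OL1 and OL2 were 50.9, 50.1, 85.0 and 134 CPM for 4 macrophage markers, of which CD14 and CD68 had an unadjusted p-value under 0.05. They were 5.49, 7.22, 16.4 and 9.29 for 4 markers of T and NK cells and 3.02, 5.73, 16.0 and 6.09 for 4 of B and plasma cells, with NKG7, CD8A and POU2AF1 higher in old livers by the unadjusted threshold. The B and plasma cell markers did not move together, since MZB1 alone was at 11.4 CPM in OL1, CD79B was below both young livers (1.14 and 1.29 CPM) in OL1 (0.845) and OL2 (0.265), and MS4A1 had a log2 fold change of -0.28. For 6 cholangiocyte markers they were 9.57, 11.8, 10.6 and 19.5, with SOX9 at most 0.334 CPM. For 3 endothelial markers they were 30.5, 27.5, 29.2 and 32.0, for 5 of stellate cells and fibroblasts 17.3, 35.2, 12.3 and 47.1, and for 3 of erythroid cells 622, 429, 306 and 405. The endothelial markers did not move together. PECAM1 was at 10.5, 8.92, 23.8 and 13.8 CPM in YL1, YL2, OL1 and OL2, while KDR (10.6, 9.87, 2.26 and 10.3) and TEK (9.4, 8.7, 3.1 and 8.0) were lowest in OL1. ACTA1, the single skeletal muscle marker with an identifier, was at most 0.863 CPM. The leukocyte sums were thus higher in both old livers, in which NR5A2 was lower and FOXA2, CEBPA and ONECUT1 were higher, and their part in those differences was not tested.

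The same 4 livers gave small RNA-seq libraries, in which the liver miRNAs whose genes are driven by hepatocyte nuclear factors were examined. No miRNA was called by limma (0% of 867, where the unadjusted threshold of 0.05 left 72 higher and 31 lower). Since the summed miRNA signal differed between libraries, levels are given as shares of that sum, and the fits named below are on the signal rescaled to equal sums, an alternative chosen after seeing the data. The miRNA ssc-miR-122, whose gene is a shared target of HNF4A, FOXA and CEBPA, held 24.3% in YL1, 23.2% in YL2, 23.7% in OL1 and 27.3% in OL2. The shares of ssc-miR-192 were 2.91% and 3.10% against 2.38% and 1.32%, and those of ssc-miR-194a were 3.98% and 4.28% against 2.95% and 1.37%. Both were lower in each old liver, with limma adjusted p-values of 0.493 and 0.475 on equal sums. On the deposited signal these were 0.719 and 0.603, and there ssc-miR-192 overlapped between the age groups. The shares of miR-192-3p, miR-194-5p and ssc-miR-194b-5p were also lower in each old liver. That of miR-194-3p overlapped and was highest in OL2 (0.0103%, 0.0102%, 0.00752% and 0.0187% in YL1, YL2, OL1 and OL2). The passenger strand miR-122-3p was higher in both old livers, 0.0672% and 0.0540% against 0.0189% and 0.0191%, with a log2 fold change on equal sums of 1.67 (SE 0.39, limma adjusted p = 0.225) and on the deposited signal of 1.72 (SE 0.61, limma adjusted p = 0.328).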

How the data were processed

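Per the paper, the authors used TopHat2 for alignment to Sscrofa10.2 and StringTie for assembly and name the deposited values TPM, estimated with Salmon. Versions are from the submitters' processing notes (TopHat2 2.0.14, StringTie 1.2.3, Salmon 0.6.0). As deposited, the mRNA values are CPM: within a tolerance of 0.0006, 100% of nonzero entries per library were whole reads times 1 step per library, from 0.0109 to 0.0162 CPM. The miRNA values, made by the authors with mirdeep2 and also named TPM, are treated as a normalized signal, because they sum to far more than that unit allows and to a different total in each library. Counting intervals are exact Poisson intervals at 95% and, like the limit of 3 reads behind a 0, cover counting error only.

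Symbols were paired with 11654 of the 21607 identifiers, and neighbours were read from the order of genes in RefSeq (Sscrofa11.1). Old and young livers were compared with limma (3.58.1) on log2(value + 1), keeping features with nonzero values in 2 or more libraries, and with p-values adjusted by the Benjamini-Hochberg method over all features tested. A call needed an adjusted p-value under 0.05 and a log2 fold change of more than 1 in size. A fold change on this scale understates the change of low genes. The exact and quasi-likelihood tests of edgeR (4.0.16) on recovered reads and size factors of DESeq2 (1.42.0) were alternatives. On simulated counts holding 200 genes moved by 3 on the log2 scale at a dispersion of 0.05, limma called 0% of them, the exact test 99.5% and the quasi-likelihood method 96% (18042 genes). At a dispersion of 0.4 these were 0%, 3.50% and 0% (17953 genes), and the common dispersion that edgeR estimated for the deposited mRNAs was 0.462. Every simulated gene had the same dispersion, whereas 0.462 is 1 value for all mRNAs. The simulated percentages are therefore not the power of these tests in the deposited data. The p-values describe the spread between 2 animals per group.

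Named genes were all lineage factors, the close relatives NR0B2, NR1H4, CEBPG, ONECUT2, GATA4 and GATA6, defining markers of cell types, for each list the 3 with the largest fold change at an unadjusted p-value under 0.05, and the 3 nearest profiles. One gene under this rule is not reported here. APOB was named in addition after its values were seen. The factors and lists were chosen with earlier results of these data known. A planned ratio of CEBPB to CEBPA could not be computed without CEBPB. LncRNA and circRNA tables were not used here, and no sequence was used here.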

Additional observations from a re-analysis of the deposited data

How the results depend on the processing

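With 2 livers per age group, neither the absence of calls in limma nor a p-value bears on stability. The count of called mRNAs was 0 in limma and remained 0 under the other pseudocount, without a filter, with TMM or DESeq2 scaling, with a variance trend, in the quasi-likelihood test and with each library left out. It was 2 with a mean of at least 1 CPM required and 534 in the exact test of edgeR. With the replicate number of the labels as a block (replicate block) it was also 0. The numbers only name unrelated sows, and the correlation of same-numbered deviations was 0.090. For miRNAs the count of 0 ranged up to 36 with 1 library left out, with 22 without old replicate 1 and 36 without old replicate 2, and the rescaling to equal sums, chosen after seeing the data, kept it at 0. The median log2 fold change of the 7 factors was 0.72 in both edgeR tests, which do not use the pseudocount of 1, and from 0.12 to 0.69 with 1 library left out. A group left with 1 library was assumed to vary like the other. Directions changed as follows, and the causes were not tested. HNF4A was at 0.0033 with a pseudocount of 0.1, 0.20 with TMM, 0.17 with DESeq2 size factors and 0.073 in both edgeR tests, and from -0.69 to 0.69 with 1 library left out. The ranges with 1 library left out were -0.21 to 0.39 for FOXA3, -0.025 to 1.21 for PROX1, -0.44 to 1.04 for CEBPG, -0.022 to 1.12 for ONECUT2, -0.066 to 0.68 for GATA4, -1.93 to 2.36 for CYP7A1, -0.25 to 0.57 for ssc-miR-122, -0.75 to 0.034 for miR-192-3p and -0.40 to 0.94 for miR-194-3p, and CYP7A1 was at -0.037 with a pseudocount of 0.1. Of the 7 factors, FOXA2, CEBPA, ONECUT1 and NR5A2 kept their direction under all 13 alternatives. These are the factors without overlap between the age groups, so leaving out 1 library or changing the pseudocount could not reverse them. The filters, the variance trend and the block left their fold changes as they were. Only TMM, DESeq2 size factors and the edgeR tests could have changed these directions.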

Other observations

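CYP7A1, the rate-limiting enzyme of bile acid synthesis and a target of NR5A2 and HNF4A that NR0B2 represses, was looked at after its values were seen. It was at 2.72 CPM in YL1, 12.0 in YL2, 0.829 in OL1 and 34.7 in OL2, so the lowest and the highest library were both old (log2 fold change 0.22, SE 1.82, limma adjusted p = 0.969). NR0B2 and CYP7A1 were thus in opposite order between the old livers, with NR0B2 at 68.7 CPM where CYP7A1 was at 0.829 and at 37.3 CPM where CYP7A1 was at 34.7. They were also in opposite order between the young livers, with NR0B2 at 9.92 CPM in YL1 and 4.56 in YL2. The order did not hold across the age groups, since OL2 had more of both than either young liver. The part of NR0B2 in the CYP7A1 level was not tested.

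Hepatoblast and progenitor genes, which mark immature liver cells, had an identifier for 4 of 8 listed. AFP, the fetal counterpart of albumin, was at 0 CPM in YL1, 0.116 in YL2, 0.130 in OL1 and 0.320 in OL2, and no gene of the list had an unadjusted p-value under 0.05 in limma. GPC3, a fetal liver proteoglycan, was at 11.8 CPM in YL1, 16.0 in YL2, 9.73 in OL1 and 11.5 in OL2 (log2 fold change -0.35, SE 0.21, limma adjusted p = 0.520). The old livers lay below the young ones, but YL1 and OL2 were close. Of all mRNAs with a mean of at least 1 CPM, 32.9% were lower in old livers without overlap.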
